A study of Mus musculus with 9 samples.

Results

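Alpha, delta and epsilon cells are the islet cells that make glucagon, somatostatin and ghrelin. The genes described here are 8 non-hormone identity genes of these cells, chosen by name with earlier results of these data known. Irx1, Irx2, Pou3f4, Slc38a5 and Peg10 stand for alpha cells, Rbp4 and Ghsr for delta cells, and Mboat4 for epsilon cells. They are 8 of the 55453 gene symbols counted, and all 8 passed the filter on low counts that left 19166 genes for testing. The RNA came from the entire pancreas of mouse embryos at e18.5, on a mixed C57BL6 background, and was sequenced with 3 libraries in each of 3 groups. The first group was labelled Pdx1:Cre with Grg3 and Grg4 mutations, the second Pdx1:Cre with a Grg3 mutation, and the control Pdx1:Cre alone. All groups thus carried Pdx1:Cre, a Cre recombinase under the promoter of the pancreatic factor Pdx1, and cells in which that promoter was never active add RNA to every library. Grg3 and Grg4 are Groucho co-repressors, encoded by Tle3 and Tle4. The sources used here do not give the kind of mutant allele.

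In the embryonic pancreas, endocrine cells arise from progenitors that switch on Neurog3, and later transcription factors set which hormone each cell makes. Alpha and epsilon cells appear early in the mouse, and ghrelin cells share precursors with glucagon cells. Groucho proteins bind no DNA themselves and are recruited by factors such as homeodomain and Hes proteins.

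Gene counts summed to 46817453 to 62744499 per library. Levels are given as CPM, counts per 1000000, scaled between libraries by the trimmed mean of M values (TMM). The 23 acinar genes listed summed to 253615 to 290402 CPM in the libraries labelled Grg3 Grg4 mutant. They summed to 209065 to 395913 in those labelled Grg3 mutant and 388222 to 444340.4 in controls. Tle3 went against the labels, at 131, 126 and 146 CPM in the libraries labelled Grg3 Grg4 mutant and 148, 167 and 145 in those labelled Grg3 mutant, against 63.1, 67.7 and 63.7 in controls. Its log2 fold changes from control were 1.05 (SE 0.09) and 1.24 (SE 0.09), with edgeR adjusted p of 0.000557 and 0.000270. Counts per whole gene do not show a deleted part. Tle4 was at 8.63 to 15.5, 9.83 to 13.8 and 7.68 to 7.85 CPM in the same order. Groups are therefore called by their labels, and every direction below is between labels. All 3 libraries labelled Grg3 Grg4 mutant were read as male from Xist and Ddx3y, as were replicate 1 of the Grg3 label and control replicate 1, and the other 4 as female. Replicate 2 of the Grg3 Grg4 label stood apart in 15 muscle genes, at a summed 3398 CPM against 225 to 466 in the other libraries of its label, 336 to 840 under the Grg3 label and 133 to 182 in controls.

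The sequences before the start sites of Pou3f4, Slc38a5 and Rbp4 are shown because these 3 members passed a test against control. They are the RefSeq windows of 250 bases before to 50 after the start (GRCm38.p6), read in the direction of transcription. RefSeq windows matched 5 of the 8 members, and Rbp4 has a pair of start sites. Capitals mark matches, on either strand, to the letters TGTTTAC (a Foxa core), CTTTGAT (a Tcf/Lef site), CACTTNA (an Nkx2 site), TATAAA and GGGCGG (a GC box).
Pou3f4 chrX:110814129-110814428, plus strand: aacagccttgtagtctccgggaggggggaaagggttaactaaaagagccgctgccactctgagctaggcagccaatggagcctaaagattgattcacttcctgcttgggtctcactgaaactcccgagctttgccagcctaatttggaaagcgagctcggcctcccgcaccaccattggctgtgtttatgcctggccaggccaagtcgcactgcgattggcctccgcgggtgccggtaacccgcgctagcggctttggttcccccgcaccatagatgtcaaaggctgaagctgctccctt
Slc38a5 chrX:8271131-8271430, plus strand: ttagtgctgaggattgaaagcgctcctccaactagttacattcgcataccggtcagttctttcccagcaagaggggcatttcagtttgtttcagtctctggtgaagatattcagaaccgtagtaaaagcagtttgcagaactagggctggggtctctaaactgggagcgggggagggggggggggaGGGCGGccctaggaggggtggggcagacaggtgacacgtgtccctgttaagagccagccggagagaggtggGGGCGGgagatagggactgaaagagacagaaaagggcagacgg
Rbp4 upstream start chr19:38125272-38125571, minus strand: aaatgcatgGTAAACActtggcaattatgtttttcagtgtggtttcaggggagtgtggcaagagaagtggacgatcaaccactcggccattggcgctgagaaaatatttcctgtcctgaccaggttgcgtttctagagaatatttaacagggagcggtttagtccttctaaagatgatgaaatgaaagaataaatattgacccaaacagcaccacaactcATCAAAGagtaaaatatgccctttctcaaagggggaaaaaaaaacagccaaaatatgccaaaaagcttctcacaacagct
Rbp4 downstream start chr19:38124762-38125061, minus strand: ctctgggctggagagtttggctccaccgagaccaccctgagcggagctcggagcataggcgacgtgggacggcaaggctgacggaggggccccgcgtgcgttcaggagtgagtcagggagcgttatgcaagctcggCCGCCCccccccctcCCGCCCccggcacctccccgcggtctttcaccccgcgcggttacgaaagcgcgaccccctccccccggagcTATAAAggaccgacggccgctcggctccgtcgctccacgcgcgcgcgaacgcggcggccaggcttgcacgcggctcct
The Pou3f4 window held none of the 5 motifs. That of Slc38a5 held 2 GC boxes, a motif in 35.7% of all 32851 RefSeq windows. The upstream window of Rbp4 held 1 Foxa core and 1 Tcf/Lef site, present in 3.65% and 3.73% of windows, and had a GC content of 40.7% against a median of 52.7% over all windows. Its downstream window had a GC content of 72.0%, 2 GC boxes and a TATAAA, a motif in 13.6% of windows. A match of letters is not a measured binding site.

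Under the Grg3 Grg4 label, Pou3f4 fell and Slc38a5 rose relative to control, and the other 6 members did not pass the test. Pou3f4 stood at 1.49 ± 0.410 CPM against 3.89 ± 0.300 in controls, and Slc38a5 at 395 ± 67.1 against 211 ± 36.2 (SD, n = 3 each). Over all genes 2.14% were called in this comparison (1.24% higher and 0.897% lower) at an adjusted p under 0.05. The median log2 fold change of the 8 members was 0.10, and that of all genes 0.01. The groups did not overlap for 3 members (1 higher and 2 lower), where 29.1% of all genes did not overlap (14.9% higher and 14.2% lower). Ghsr was among the lower members, its highest value of 0.103 CPM (7 counts) just below the lowest control, 0.104 CPM (5 counts). In a whole organ, fewer cells of a type and less RNA per cell cannot be told apart.

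Under the Grg3 label, 1 member rose relative to control and 7 did not pass. That was Rbp4, at 106 ± 16.0 CPM against 66.8 ± 6.67 in controls (SD, n = 3 each). Over all genes 1.40% were called (0.704% higher and 0.694% lower). The median log2 fold change of the members was 0.22, against 0.02 over all genes. The groups did not overlap for 4 members (3 higher and 1 lower), where 24.6% of all genes did not overlap (12.6% higher and 12.0% lower). Both comparisons use the same 3 controls.

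Between the libraries labelled Grg3 Grg4 mutant and those labelled Grg3 mutant, edgeR called 0 of 8 members, DESeq2 called 1 and limma's voom 0, and 1 member, Rbp4, had an unadjusted p under 0.05. Over all genes 0.188% were called here (0.130% higher and 0.0574% lower). An unadjusted p under 0.05 was found for 3319 of all 19166 genes in this comparison (edgeR). The groups did not overlap for 1 member, which was lower, where 21.1% of all genes did not overlap (11.8% higher and 9.30% lower). The median log2 fold change of the members was -0.33 and that of all genes 0.00. The plot of the members by library shows every value.

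**Figure D1:**
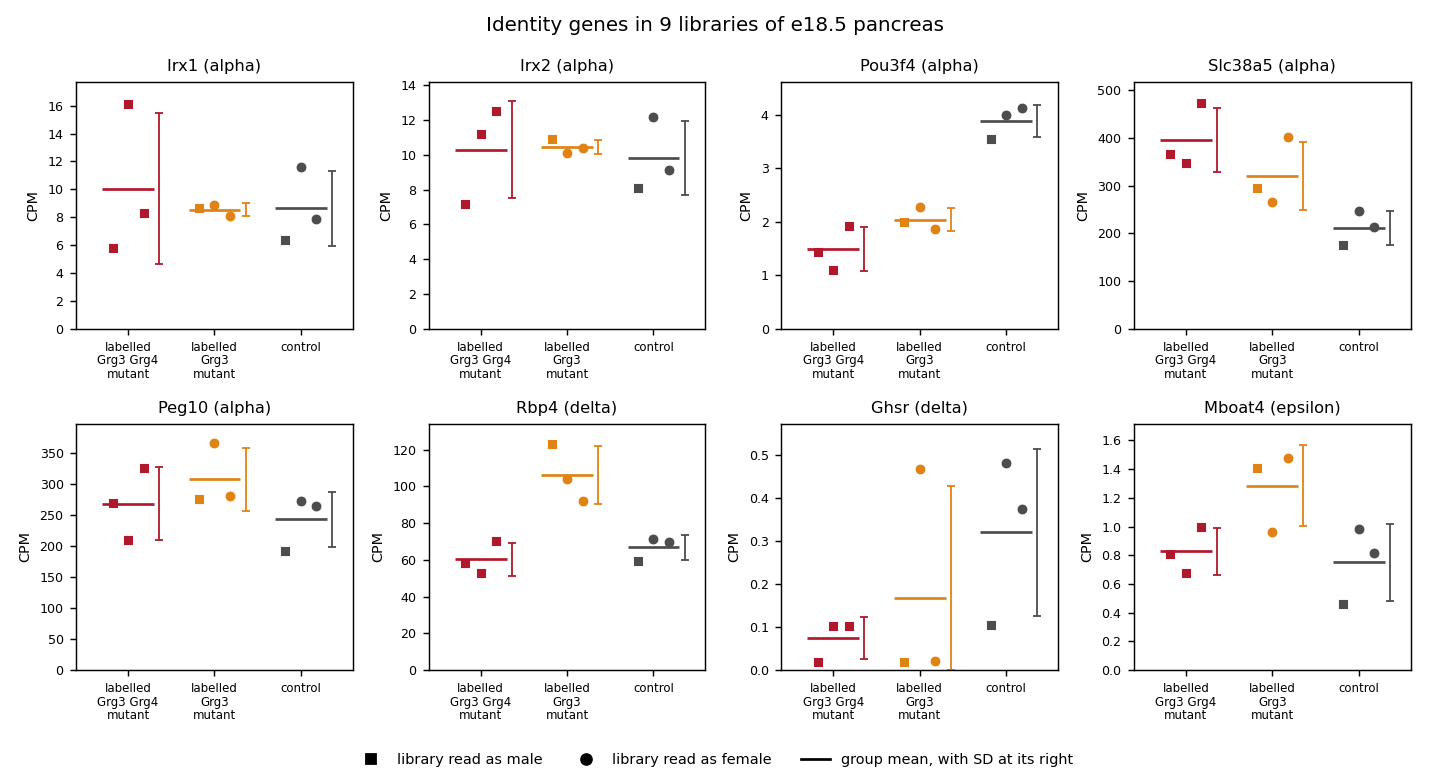
CPM of the 8 identity genes in each library (y axes from 0), with squares for libraries read as male, circles for female, lines for group means and bars for the SD (cut at 0 for Ghsr). Pou3f4 is lower in all 6 libraries labelled mutant (1.10 to 2.27 CPM) than in controls (3.55 to 4.12), and Rbp4 is higher in the libraries labelled Grg3 mutant (91.8 to 123 CPM) than in controls (59.2 to 71.3).

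Levels of different genes can be set side by side only per length, here as CPM per kb of merged exon length. In controls the order was Slc38a5 (94.3 ± 16.2), Rbp4 (49.8 ± 4.97), Peg10 (36.4 ± 6.67), Irx1 (3.30 ± 1.03), Irx2 (2.99 ± 0.645), Pou3f4 (1.33 ± 0.102), Mboat4 (0.410 ± 0.146) and Ghsr (0.0722 ± 0.0439; SD, n = 3 each). Irx1 and Irx2 were neighbours whose ranges overlapped, and the other neighbours did not overlap in controls. The hormones lay above the identity genes of their cells, with Gcg at 740 ± 106, Sst at 364 ± 37.9 and Ghrl at 18.4 ± 1.81 CPM per kb. In the libraries labelled Grg3 Grg4 mutant, Rbp4 (45.0 ± 6.71) and Peg10 (40.1 ± 8.79) overlapped, and Mboat4 (0.452 ± 0.0885) came within the range of Pou3f4 (0.508 ± 0.140). In those labelled Grg3 mutant, Rbp4 stood at 79.2 ± 11.9 and Peg10 at 46.1 ± 7.59 CPM per kb.

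Pou3f4 (chromosome X, 110814280 to 110817207, GRCm38, plus strand, a single exon of 2928 bases) encodes a POU domain factor of glucagon-producing cells. It had 1.44, 1.10 and 1.92 CPM in replicates 1, 2 and 3 of the Grg3 Grg4 label, from 80, 75 and 94 counts. It had 1.99, 2.27 and 1.86 CPM in those of the Grg3 label, from 109, 165 and 92 counts, and 3.55, 4.00 and 4.12 CPM in controls, from 170, 191 and 187 counts. Every library labelled mutant lay below every control. The log2 fold change from control was -1.39 (SE 0.24, edgeR adjusted p = 0.0216) for the Grg3 Grg4 label and -0.93 (SE 0.23, edgeR adjusted p = 0.0814) for the Grg3 label, which did not pass. Between the labels it was -0.46 (95% interval -0.98 to 0.06, edgeR adjusted p = 0.341).

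The fall of Pou3f4 under the Grg3 Grg4 label ended as a call with embryo sex as a term (log2 -1.30, adjusted p = 0.141) and without control replicate 1, 2 or 3 or replicate 1 of that label (log2 -1.45 to -1.35, adjusted p = 0.0617, 0.115, 0.0995 and 0.0683; edgeR). Among male libraries the values were 1.44, 1.10 and 1.92 CPM under the Grg3 Grg4 label, against 3.55 CPM in the 1 male control. Under the Grg3 label, DESeq2 and limma's voom called Pou3f4 lower (adjusted p = 0.00473 and 0.0439).

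Slc38a5 (chromosome X, 8271133 to 8280179, plus strand) encodes a sodium-coupled carrier of glutamine and other neutral amino acids, which mouse alpha cells make in large amounts when glucagon signalling is blocked. It had 365, 348 and 472 CPM in replicates 1, 2 and 3 of the Grg3 Grg4 label and 294, 265 and 401 in those of the Grg3 label, against 175, 247 and 213 in controls. Both groups labelled mutant lay above the controls without overlap, and they overlapped each other. The log2 fold change was 0.90 (SE 0.19, edgeR adjusted p = 0.0408) for the Grg3 Grg4 label and 0.60 (SE 0.19, edgeR adjusted p = 0.129) for the Grg3 label, which did not pass. Between the labels it was 0.30 (95% interval -0.11 to 0.72, edgeR adjusted p = 0.430).

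The rise of Slc38a5 under the Grg3 Grg4 label ended as a call with embryo sex as a term (log2 1.10, adjusted p = 0.118) and without any 1 of the 6 libraries compared. Those fits gave log2 0.75 to 1.03, with adjusted p of 0.122, 0.119 and 0.137 without control replicate 1, 2 and 3, and 0.0779, 0.0553 and 0.0933 without replicate 1, 2 and 3 of the label (edgeR). Among male libraries it had 365, 348 and 472 CPM under the Grg3 Grg4 label, against 175 in the 1 male control. DESeq2 called Slc38a5 higher under the Grg3 label (adjusted p = 0.0239). Immature red cells also make Slc38a5. The 11 counted genes of the erythroid list summed to 3477, 1735 and 1766 CPM in replicates 1, 2 and 3 of the Grg3 Grg4 label and 3415, 2619 and 1966 in those of the Grg3 label, against 2080.4, 1718 and 1710.1 in controls. Of these 11 genes, 0 passed in either comparison (edgeR). Over all 19166 genes, 3866 and 3661 had an unadjusted p under 0.05 for the Grg3 Grg4 and the Grg3 label. Of the 11 erythroid genes 4 and 1 had one, DESeq2 called 1 and 0, and voom 0 and 0. Their part in the result was not tested.

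The Slc38 family also holds other carriers of glutamine and neutral amino acids. Of 9 other Slc38 genes, edgeR called 0 in each comparison with control, and their median log2 fold change was -0.09 for the Grg3 Grg4 label and -0.21 for the Grg3 label. At an unadjusted p under 0.05 there were 2 and 4, and DESeq2 and limma's voom each called 1 and 0. Over all 19166 genes, 3866 and 3661 had an unadjusted p under 0.05 in these comparisons.

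Rbp4 (chromosome 19, 38116629 to 38125281, minus strand) encodes the carrier of retinol in plasma, made mainly by hepatocytes and, in mouse islets, by delta cells. Under the Grg3 Grg4 label it had 58.3, 52.6 and 70.3 CPM in replicates 1, 2 and 3. It had 123, 104 and 91.8 CPM in those of the Grg3 label, against 59.2, 71.3 and 70.0 in controls. The Grg3 label lay above the other groups without overlap, and the Grg3 Grg4 label overlapped the controls. The log2 fold change from control was 0.67 (SE 0.14, edgeR adjusted p = 0.0478) for the Grg3 label and -0.15 (95% interval -0.45 to 0.16, edgeR adjusted p = 0.597) for the Grg3 Grg4 label. Between the Grg3 Grg4 label and the Grg3 label it was -0.82 (SE 0.14), just short of the threshold in edgeR (adjusted p = 0.0518) and past it in DESeq2 (adjusted p = 1.52e-05) and with a filter of 1 CPM in at least 3 libraries (edgeR adjusted p = 0.0454).

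The rise of Rbp4 under the Grg3 label ended as a call in 7 of 15 alternatives. These were embryo sex as a term (log2 0.67, adjusted p = 0.0705), the replicate number as a term (0.67, 0.0838), leaving out control replicate 1, 2 or 3 (0.59, 0.72 and 0.70, adjusted p = 0.108, 0.146 and 0.171) and leaving out replicate 1 or 2 of the label (0.56 and 0.69, adjusted p = 0.120 and 0.0685; edgeR). The liver list (17 genes counted) summed to 2023, 515 and 962 CPM in replicates 1, 2 and 3 of the Grg3 label. It summed to 992, 1132 and 2247 in those of the Grg3 Grg4 label, against 377 to 403 in controls. Ttr, also on the alpha cell list, gave 279 to 336, 238 to 332 and 199 to 221 CPM of these sums in that order. Alb had 636, 37.9 and 220 CPM and 257, 362 and 811 CPM in the same libraries labelled mutant, against 2.37 to 5.47 in controls. Of 16 liver genes tested, 10 rose under the Grg3 label and 11 under the Grg3 Grg4 label. The liver sums lay above the controls in all 6 libraries labelled mutant. In a whole organ, Rbp4 RNA of liver and of islet cells cannot be told apart. Of the liver list, 1 to 5 genes were at 0 in a control and 0 or 1 in a library labelled mutant. The other markers of cells that make Rbp4, 10 adipocyte genes, summed to 146 to 186 CPM under the Grg3 Grg4 label and 199 to 215 under the Grg3 label, against 146 to 171 in controls. Of these 10 genes, 1 to 5, 4 or 5, and 4 or 5 were at 0 in a library of the 3 groups in that order. The part of liver or adipocyte RNA in the Rbp4 values was not tested.

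Stra6 encodes the cell-surface receptor for Rbp4 and stood lower in both groups labelled mutant, opposite to Rbp4 under the Grg3 label. It had 3.80, 5.72 and 2.98 CPM in replicates 1, 2 and 3 of the Grg3 Grg4 label and 5.23, 2.21 and 3.69 in those of the Grg3 label, against 6.70, 30.9 and 42.0 in controls. Control replicate 1, the male control, lay close to the libraries labelled mutant. Stra6 fell by 2.66 (SE 0.58, adjusted p = 0.0474) and 2.84 (SE 0.58, adjusted p = 0.0490) on the log2 scale (edgeR). For either label, 9 of the 15 alternatives ended the call, including embryo sex as a term (adjusted p = 0.262 and 0.0988) and leaving out control replicate 2 or 3 or any library of the label compared (adjusted p = 0.0720 to 0.194). Stra6 (chromosome 9, 58063788 to 58153996) lies 3218 kb from Tle3, the gene of Grg3. Any part of this position in the Stra6 values was not tested. Of 17 tested genes of retinoid handling, edgeR called Stra6 under the Grg3 Grg4 label, and Stra6 and Rbp4 under the Grg3 label, with medians of 0.12 and 0.19. Over all genes edgeR called 2.14% and 1.40%. At an unadjusted p under 0.05 there were 4 and 8 of the 17, where 3866 and 3661 of all 19166 genes had one. DESeq2 called 2 higher and 1 lower for the Grg3 Grg4 label, and 4 higher and 1 lower for the Grg3 label. Voom called 2 and 3 higher and 0 lower, so it did not call Stra6.

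Irx1 (chromosome 13, 71957921 to 71963723, minus strand) and Irx2 (chromosome 13, 72628820 to 72634198, plus strand) encode Iroquois homeodomain factors of mouse alpha cells and lie 665 kb apart. Irx1 had 5.77, 16.1 and 8.30 CPM in replicates 1, 2 and 3 of the Grg3 Grg4 label and 8.68, 8.91 and 8.07 in those of the Grg3 label, against 6.39, 11.6 and 7.90 in controls. Irx2 had 7.16, 11.2 and 12.5 CPM, 10.9, 10.1 and 10.4 CPM, and 8.10, 12.2 and 9.13 CPM in the same libraries. All 3 groups overlapped for both genes. The log2 fold changes of Irx1 were 0.22 (95% interval -0.52 to 0.97) for the Grg3 Grg4 label and -0.01 (-0.76 to 0.73) for the Grg3 label, with edgeR adjusted p of 0.758 and 0.988. Those of Irx2 were 0.07 (-0.39 to 0.54) and 0.09 (-0.37 to 0.56), with edgeR adjusted p of 0.884 and 0.856.

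The high Irx1 value belonged to replicate 2 of the Grg3 Grg4 label, the library with raised muscle genes, and without it the log2 fold change was -0.30. That library also held most counts of Irx3 and Irx5, chosen after their values were seen. Irx3 had 491 counts there, against 27 and 45 in replicates 1 and 3 of the label 18 to 86 under the Grg3 label and 22 to 56 in controls. Irx5 had 98 counts, against 11 and 1 in the other libraries of the label, 0 to 2 under the Grg3 label and 1 to 6 in controls. The part of that library's muscle or other tissue in the Irx1 value was not tested.

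Of 4 tested Iroquois genes, Irx4 was the 1 that rose. Irx4 (chromosome 13, 73260479 to 73269608), a factor best known from heart ventricle, lies 626 kb beyond Irx2. It had 2.40, 1.97 and 2.84 CPM in replicates 1, 2 and 3 of the Grg3 Grg4 label and 2.12, 2.86 and 4.66 in those of the Grg3 label, against 0.397, 0.649 and 0.220 in controls, or 406, 554 and 60 counts over each group. Every library labelled mutant lay above every control. The log2 fold changes were 2.50 (SE 0.42, adjusted p = 0.0207) and 2.92 (SE 0.42, adjusted p = 0.0152; edgeR). The first call ended with embryo sex as a term (2.84, adjusted p = 0.0835) and without control replicate 1 or 3 or replicate 1 of the label (2.45, 2.19 and 2.50, adjusted p = 0.0823, 0.0880 and 0.0520). The second ended without control replicate 3 (2.61, adjusted p = 0.0749).

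**Figure D2:**
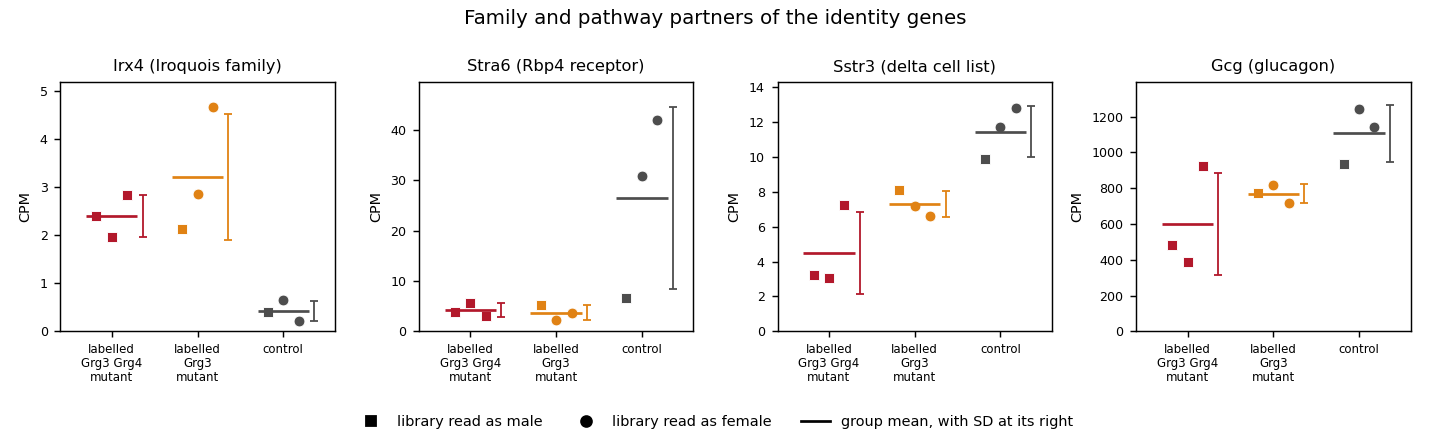
CPM of Irx4, Stra6, Sstr3 and Gcg in each library (y axes from 0), with squares for libraries read as male, circles for female, lines for group means and bars for the SD. Irx4 is higher in all 6 libraries labelled mutant (1.97 to 4.66 CPM) than in controls (0.220 to 0.649), and the male control has a Stra6 value (6.70 CPM) near theirs.

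Peg10 (chromosome 6, 4747306 to 4760517, plus strand) derives from a retrotransposon, is expressed from the paternal allele, and is used as a marker of mouse alpha cells. It had 269, 209 and 326 CPM in replicates 1, 2 and 3 of the Grg3 Grg4 label and 276, 366 and 280 in those of the Grg3 label, against 192, 273 and 264 in controls. The Grg3 label lay just above the controls and the other groups overlapped. The log2 fold changes were 0.14 (95% interval -0.28 to 0.56, edgeR adjusted p = 0.726) and 0.34 (-0.08 to 0.76, edgeR adjusted p = 0.360). Which cells of the whole organ gave the Peg10 RNA was not tested. Sgce, the imprinted gene that starts 98 bases away in the other direction, was named after its values were seen. It had 23.7, 24.0 and 28.1 CPM under the Grg3 Grg4 label and 32.7, 35.4 and 30.0 under the Grg3 label, against 31.5, 31.8 and 30.5 in controls. Its log2 fold changes were -0.31 (adjusted p = 0.109) and 0.06 (adjusted p = 0.752; edgeR). Of 16 imprinted genes, edgeR called 0 in either comparison with control, and 3 and 2 had an unadjusted p under 0.05. DESeq2 called 3 and 1 of them, and voom 2 and 1. Over all 19166 genes, 3866 and 3661 had an unadjusted p under 0.05 in these comparisons.

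Ghsr (chromosome 3, 27371351 to 27378010, plus strand) encodes the ghrelin receptor, which mouse delta cells carry. It had 1, 7 and 5 counts in replicates 1, 2 and 3 of the Grg3 Grg4 label, 1, 34 and 1 in those of the Grg3 label, and 5, 23 and 17 in controls. Replicate 2 of the Grg3 label held 34 of the 36 counts of its group. The log2 fold changes were -2.06 (95% interval -4.59 to 0.46) for the Grg3 Grg4 label and -0.84 (-3.14 to 1.46) for the Grg3 label, with edgeR adjusted p of 0.343 and 0.707. At this depth both intervals hold 0 as well as a fall of the size seen for Pou3f4.

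Mboat4 (chromosome 8, 34115030 to 34125182, plus strand) encodes the acyltransferase that attaches a fatty acid to ghrelin, without which ghrelin does not act on Ghsr. It had 0.811, 0.676 and 1.0 CPM in replicates 1, 2 and 3 of the Grg3 Grg4 label and 1.41, 0.961 and 1.48 in those of the Grg3 label, against 0.459, 0.985 and 0.814 in controls. All groups overlapped the controls. The log2 fold changes were 0.14 (95% interval -0.64 to 0.92, edgeR adjusted p = 0.867) and 0.76 (-0.01 to 1.54, edgeR adjusted p = 0.268). An antisense gene overlaps 7.35% of its exon bases, and without a stated strand setting its reads cannot be told apart there.

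**Figure D3:**
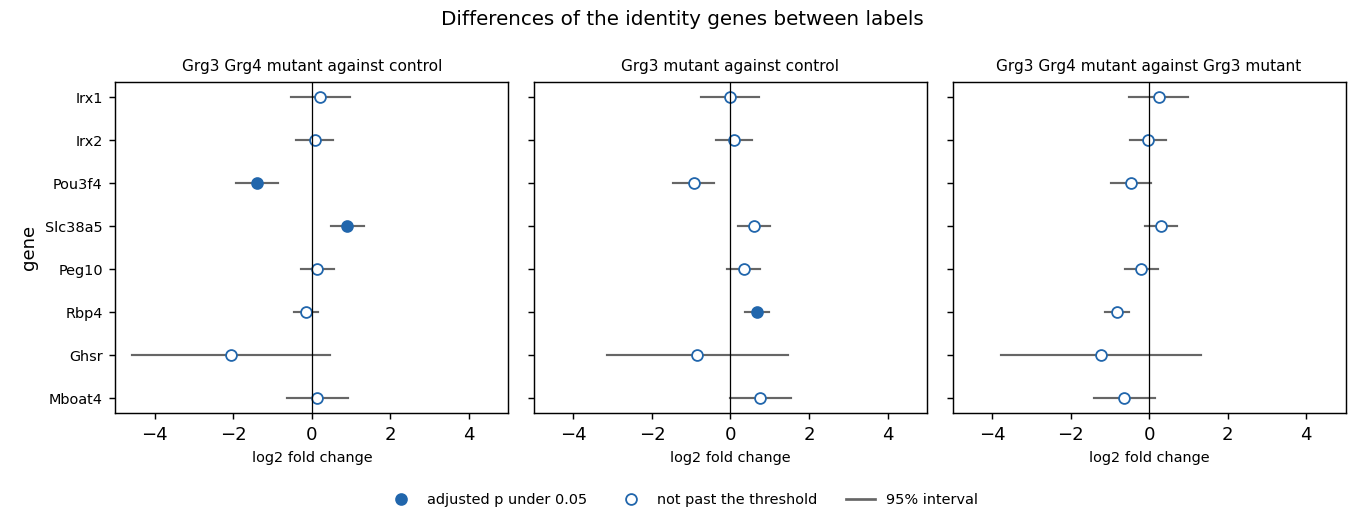
Log2 fold changes of the 8 identity genes (x axes) with 95% intervals in each comparison, filled where the edgeR adjusted p was under 0.05. Pou3f4 (-1.39) and Slc38a5 (0.90) are filled for the Grg3 Grg4 label, Rbp4 (0.67) for the Grg3 label, and the intervals of Ghsr are the widest.

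Gcg, Sst and Ghrl, the hormone genes of these cells, did not pass in any comparison in edgeR as fitted for all results here. Gcg had 485, 388 and 925 CPM in replicates 1, 2 and 3 of the Grg3 Grg4 label and 774, 819 and 715 in those of the Grg3 label, against 933, 1245 and 1141 in controls. Both groups lay below the controls, by -0.88 (edgeR adjusted p = 0.115) and -0.52 (edgeR adjusted p = 0.327) on the log2 scale. Sst had 141, 162 and 257 CPM under the Grg3 Grg4 label and 428, 491 and 328 under the Grg3 label, against 237, 291 and 259 in controls. Its log2 fold changes were -0.49 (edgeR adjusted p = 0.248) and 0.67 (edgeR adjusted p = 0.146), and between the labels -1.15 (edgeR adjusted p = 0.0715). Ghrl had 11.8, 16.0 and 19.3 CPM, 30.5, 25.5 and 20.8 CPM, and 17.8, 21.7 and 20.0 CPM in the 3 groups in the same order, with log2 fold changes of -0.34 and 0.37 (edgeR adjusted p = 0.345 and 0.314). Some alternatives called them. Gcg was called lower under the Grg3 Grg4 label with no filter on low counts (adjusted p = 0.0420) and without replicate 3 of that label (log2 -1.34, adjusted p = 0.0108; edgeR). Sst was called higher under the Grg3 label by DESeq2 (adjusted p = 0.0289). Between the Grg3 Grg4 label and the Grg3 label, Sst was called lower with no filter (adjusted p = 0.00779), without replicate 3 of the Grg3 Grg4 label (adjusted p = 0.0452; edgeR) and by DESeq2 (adjusted p = 1.89e-05). DESeq2 also called Ghrl lower in that comparison (adjusted p = 0.0119).

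A ratio to the hormone in the same library also moves with the hormone, and Gcg lay below the controls under both labels. Over all 19165 other genes tested, the median log2 difference per Gcg count was 0.99 for the Grg3 Grg4 label and 0.53 for the Grg3 label. Of these genes, 45.4% and 51.1% lay higher than the controls without overlap, and 0.308% and 0.809% lower. For every 1000 Gcg counts, Slc38a5 had 752, 898 and 510 counts in replicates 1, 2 and 3 of the Grg3 Grg4 label and 380, 323 and 561 in those of the Grg3 label, against 187, 198 and 186 in controls. Peg10 had 554, 538 and 352 counts and 357, 447 and 392, against 205, 219 and 231 in controls. Pou3f4 had 2.98, 2.84 and 2.07 counts and 2.57, 2.77 and 2.61, against 3.80, 3.21 and 3.61 in controls. Per Gcg count, Slc38a5 and Peg10 lay higher and Pou3f4 lower in every library labelled mutant. On the log2 scale the differences from control were 1.88 and 1.11 for Slc38a5, 1.11 and 0.86 for Peg10 and -0.44 and -0.41 for Pou3f4, for the Grg3 Grg4 and the Grg3 label. For Peg10, 1.11 lay close to the median of all genes per Gcg count, 0.99, and 0.86 lay above the median of 0.53. The CPM of Peg10 itself did not pass in either comparison, with log2 fold changes of 0.14 and 0.34 (edgeR adjusted p = 0.726 and 0.360).

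Irx2 had 14.8, 29.0 and 13.5 counts per 1000 Gcg counts and 14.0, 12.4 and 14.5, against 8.68, 9.78 and 8.01 in controls, without overlap. Its log2 differences of 1.03 and 0.63 lay close to the medians of all genes. Irx1 overlapped the controls under the Grg3 Grg4 label (8.98 to 41.5 against 6.85 to 9.34) and not under the Grg3 label (10.9 to 11.3). Rbp4 per 1000 Sst counts was 414, 324 and 273 under the Grg3 Grg4 label and 288, 211 and 280 under the Grg3 label, against 250, 245 and 270 in controls. Rbp4 per Sst count therefore overlapped the controls under the Grg3 label, where its difference was 0.01 on the log2 scale, and lay above them under the Grg3 Grg4 label, where it was 0.38. Per Sst count, the median of all other genes was -0.64 for the Grg3 label and 0.54 for the Grg3 Grg4 label. Mboat4 per Ghrl and Ghsr per Sst overlapped the controls under both labels. Of the 16 ratios, 10 did not overlap and had a 2-sided exact permutation p of 0.10, the smallest that 3 against 3 libraries can give, or 0.160 after adjustment over 16. Without overlap in either direction were 45.7% of all genes per Gcg, 26.2% per Sst and 25.2% per Ghrl count under the Grg3 Grg4 label, and 51.9%, 57.1% and 27.5% under the Grg3 label, so the count of 10 is not read as a result about the members.

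**Figure D4:**
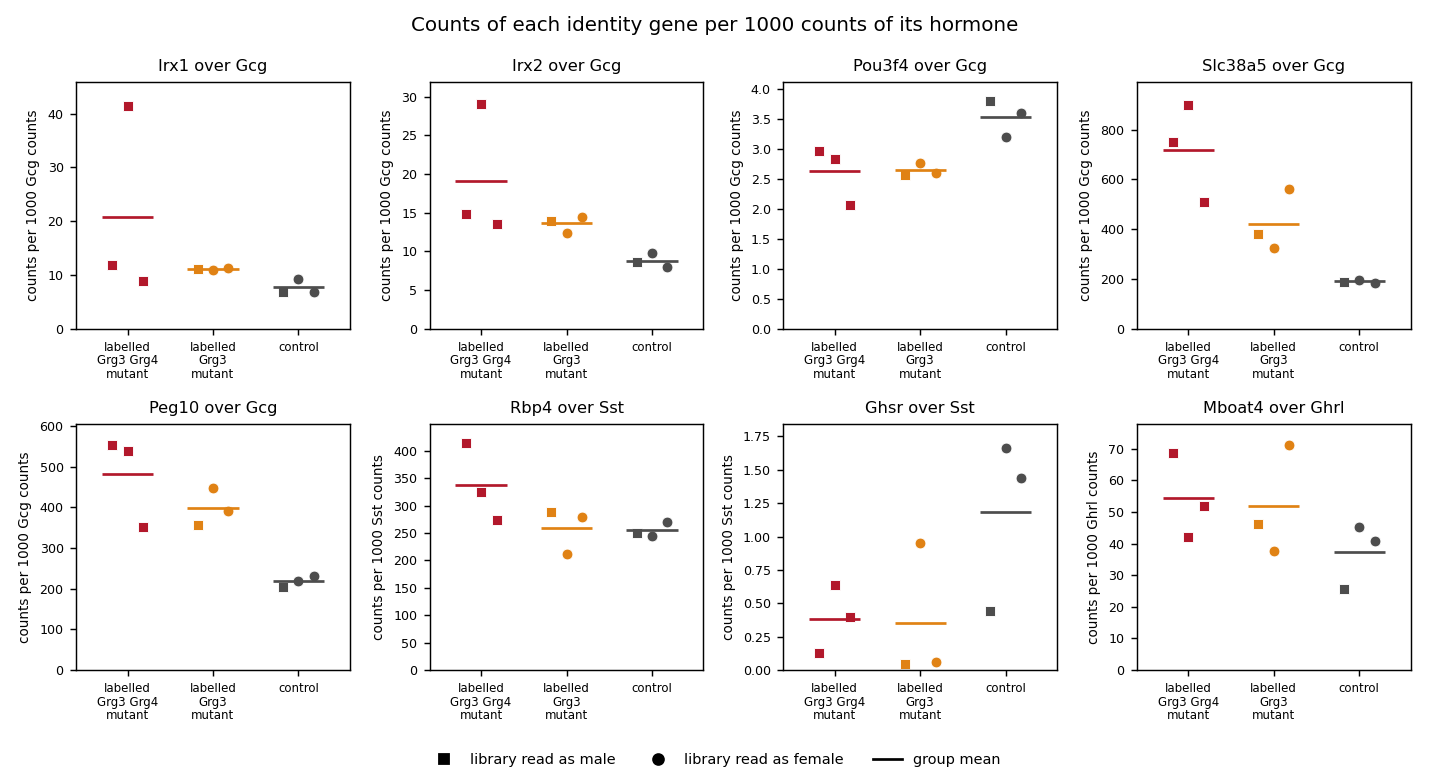
Counts of each identity gene per 1000 counts of the hormone of its cell type in the same library (y axes from 0), with squares for libraries read as male, circles for female and lines for group means. Slc38a5 per 1000 Gcg counts lies at 323 to 898 in the 6 libraries labelled mutant and at 186 to 198 in controls.

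Further genes of the same cell types, listed apart from the 8 members, passed in 1 case in edgeR. The lists include the hormone genes Gcg, Sst and Ghrl given above, and Ppy and Pyy. Of 18 tested alpha cell genes, edgeR called 0 under either label, with medians of -0.38 for the Grg3 Grg4 label and 0.05 for the Grg3 label. At an unadjusted p under 0.05 there were 8 and 6. DESeq2 called 1 higher and 1 lower under the Grg3 Grg4 label, and 2 higher and 1 lower under the Grg3 label. Voom called 1 higher and 1 lower, and 1 higher and 0 lower. Both tools also called more of all genes than edgeR did, as given in the last section. These counts are therefore not read as a result about the alpha cell list. Over all 19166 genes, 3866 and 3661 had an unadjusted p under 0.05 for the Grg3 Grg4 and the Grg3 label. Of 13 delta cell genes, Sstr3, a somatostatin receptor, fell under the Grg3 Grg4 label and 12 did not pass, with medians of -0.35 and 0.03. Under that label 5 had an unadjusted p under 0.05, and DESeq2 called 3 lower and voom 2. Sstr3 had 3.26, 3.04 and 7.22 CPM under the Grg3 Grg4 label and 8.08, 7.21 and 6.61 under the Grg3 label, against 9.87, 11.7 and 12.8 in controls. Its log2 fold changes were -1.35 (SE 0.30, adjusted p = 0.0484) and -0.65 (SE 0.29, adjusted p = 0.259; edgeR). The call ended in 8 of 15 alternatives, among them leaving out any control or replicate 1 or 2 of the label (adjusted p = 0.0991 to 0.179) and embryo sex as a term (adjusted p = 0.190; edgeR). Which cells of the whole organ gave the Sstr3 RNA was not tested. Under the Grg3 label 0 of the 13 delta cell genes passed, with 4 at an unadjusted p under 0.05, 2 called by DESeq2 and 0 by voom. Of 12 epsilon and PP cell genes, edgeR called 0 under either label (medians 0.44 and 0.37), with 7 and 3 at an unadjusted p under 0.05, 4 and 2 called by DESeq2, and 2 and 2 by voom. Under the Grg3 Grg4 label 8 of the 12 had a log2 fold change above 0, the highest being Asgr1 (3.94) and Aqp3 (3.55). The hormone genes of this list went the other way, with Ghrl at -0.34, Ppy at -0.54 and Pyy at -0.71. The median is therefore not a measure of these hormones.

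Of 16 genes of the secretory machinery that all islet cells share, 3 fell under the Grg3 Grg4 label and 13 did not pass in edgeR, with a median of -0.84. DESeq2 called 12 lower and voom 11. The 3 genes were Cpe, which trims prohormones (-0.75, SE 0.12, adjusted p = 0.0151), and the granule genes Scg2 (-1.07, SE 0.20, adjusted p = 0.0318) and Scg5 (-1.18, SE 0.24, adjusted p = 0.0395; edgeR). The list summed to 857 to 1403 CPM under the Grg3 Grg4 label and 1270.1 to 1550.3 under the Grg3 label, against 1794 to 2142 in controls. Beta cells also hold this machinery, and of 17 beta cell genes 8 fell under the Grg3 Grg4 label (median -1.02) and 3 under the Grg3 label (median -0.49). The beta cell list summed to 1488 to 3012 CPM under the Grg3 Grg4 label and 2612 to 4596 under the Grg3 label, against 4687 to 5448 in controls. Ins2, an insulin gene, fell by 1.52 on the log2 scale under the Grg3 Grg4 label (SE 0.30, edgeR adjusted p = 0.0353). The part of beta cells in the secretory values was not tested. Under the Grg3 label edgeR called 0 of 16 (median -0.32), with 3 at an unadjusted p under 0.05, 2 called by DESeq2 and 0 by voom. Over all 19166 genes, 3661 had an unadjusted p under 0.05 in that comparison.

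For each member, the genes with the most similar pattern were those with the smallest root mean square difference of log2 CPM, each gene centred on its mean, over the 9 libraries. They were picked from 14738 or 14739 other genes of at least 1 CPM, and the libraries share depth and tissue make-up. For Pou3f4 they were Gm830 (0.153), Sphkap (0.159) and Gng4 (0.165), where the SD of Pou3f4 itself was 0.65. For Slc38a5 they were Fbxo36 (0.144), Inf2 (0.157) and the pseudogene Ldha-ps2 (0.173), against an SD of 0.46. For Rbp4 they were Igsf21 (0.105), Gm5617 (0.127) and Slitrk4 (0.139), against an SD of 0.41. The nearest gene was Ak1 for Irx1 (0.178), Uap1l1 for Irx2 (0.119), the pseudogene Rpl7a-ps3 for Peg10 (0.073) and Gm7206 for Mboat4 (0.184). Ghsr had no close match, with Gabrp nearest at 0.725. Reads of pseudogenes can come from their parent genes.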

How the data were processed

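Whole-pancreas RNA was counted in 9 libraries. Each library has a deposited file of whole-number read counts by gene symbol, which the authors had not normalized. HTSeq, HISAT2, Trim Galore, FastQC, DESeq2 and bedtools appear in the submitters' processing notes, as do the builds GRCm38 and mm10, with no roles given. Tool versions, the annotation and the strand setting are not stated there. The 5 rows that name no gene held 28.5% to 33.2% of reads and were left out, among them reads aligned to several places (15.8% to 20.7%). Labels do not say that replicates came from separate litters, so p-values measure only the spread between these libraries.

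The main test was edgeR 4.0.16 (R 4.3.3), the quasi-likelihood F test, 2-sided, with TMM scaling, filterByExpr (minimum count 10, minimum total 15), 1 fit over all 9 libraries and Benjamini-Hochberg adjustment over 19166 genes. SE is the log2 fold change divided by the square root of F. A gene was called at an adjusted p under 0.05. CPM are scaled to 1000000. Positions and merged exon lengths are from GENCODE M21 on GRCm38. The test was also run on simulated counts in which 200 genes were changed. Those counts held no differences in tissue make-up or sex between libraries, so the run does not cover such differences here.

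Alternatives were DESeq2 1.42.0 size factors, scaling without the acinar list, no filter, a filter of 1 CPM in 3 libraries, the replicate number or embryo sex as a term, only the 6 libraries compared, DESeq2's Wald test, limma 3.58.1 voom with quality weights, and each library left out. Ratios to hormones used a pseudocount of 0.5. The members, the gene lists, the tests and the alternatives were chosen with earlier results of these data known. Named genes are the 8 members, hormones, Tle3, Tle4, up to 4 called genes of each list with the smallest p, and the 3 genes most like each member. The text gives a selection.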

Additional observations from a re-analysis of the deposited data

How the results depend on the processing

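With no filter on low counts, the genes called were 930 for the Grg3 Grg4 label against control, 586 for the Grg3 label against control and 228 between the labels, and with the stricter filter 75 between the labels. DESeq2's Wald test called 1553, 1463 and 1019 in the same order, and voom 1033 and 421 against control. Every count of DESeq2 or voom calls in a gene list above stands against these counts over all genes. With only the 6 libraries compared the counts were 750 for the Grg3 Grg4 label against control and 10 between the labels. With embryo sex as a term they were 30, 169 and 4, and with the replicate block 254, 167 and 11. Leaving out 1 library gave 50 to 320, 32 to 289 and 6 to 49, against 410, 268 and 36 as reported.

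Members called against control under the Grg3 Grg4 label were 0 with sex as a term and 0 to 1 without 1 library, where 2 were reported. Under the Grg3 label they were 0 with sex, 0 with the replicate block, 2 by voom, 3 by DESeq2 and 0 to 1 without 1 library, where 1 was reported. Between the labels, where 0 were reported, 1 was called with no filter, with the stricter filter and by DESeq2. Same-numbered replicates did not deviate together (correlations -0.09 to 0.09), so the numbers were not taken as pairs. The replicate block ended the calls of Rbp4, Stra6 and Sstr3.

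Signs turned only for changes that were not called. With sex as a term these were Irx1 under the Grg3 label (0.01) and, between the labels, Irx2 (0.07), Peg10 (0.04), Ghsr (0.97) and Tle4 (0.08). With the replicate block Irx1 under the Grg3 label was 0.06, and by voom Irx2 under the Grg3 Grg4 label was 0.00 and Ghsr between the labels 0.47. Leaving out 1 library moved Irx1 from -0.19 to 0.26 and Irx2 from -0.03 to 0.28 under the Grg3 label. Under the Grg3 Grg4 label it moved Irx1 from -0.30 to 0.50, Irx2 from -0.09 to 0.28, Peg10 from -0.03 to 0.29 and Mboat4 from -0.12 to 0.38. Between the labels it moved Irx1 from -0.28 to 0.51, Irx2 from -0.18 to 0.18, Ghsr from -1.72 to 1.83 and Tle4 from -0.34 to 0.10. Rbp4 per Sst under the Grg3 label ranged from -0.07 to 0.16. The causes were not tested. Scaling by DESeq2's size factors or without the acinar list ended none of the members' calls.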
